A study of Mus musculus with 12 samples.

Results

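The FGF and ERK feedback genes are 10 mouse genes of the fibroblast growth factor (FGF) pathway: the ligand Fgf4, the receptors Fgfr1 and Fgfr2, the feedback inhibitors Spry2, Spry4, Dusp4 and Dusp6, and the ERK-responsive transcription factors Egr1, Etv4 and Etv5. They were taken by gene symbol from a table of 54446 genes, and each of the 10 was present in every library. Bulk RNA sequencing had been performed on 12 libraries of embryonic stem (ES) cells from 2 lines, labelled E14 KH and E14 DNMT3ABKO. Each line was sampled untreated (0 h) and after 72 and 144 h with Ink128, which blocks the mTOR kinase (mTORi) and in the study serves to induce a dormant state resembling embryonic diapause. Every line and time point had 2 replicates, which gives 6 groups.

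The labels place E14 before both names. KH is read here as the wild-type line that the study's methods call KH2, and DNMT3ABKO is a knockout of Dnmt3a and Dnmt3b, whose products set new DNA methylation. Each genotype is represented by 1 line, so genotype and line cannot be told apart, and these samples hold no untreated culture at 72 or 144 h, so treatment and time in culture cannot be told apart either. Per the methods, KH2 and the Dnmt3a/b knockout grew on feeders, a layer of mitotically inactivated fibroblasts, whereas E14 lines grew without them, so whether these libraries came from feeder cultures rests on that reading. Viable cells were sorted before RNA extraction. The study describes the replicates as biological. The labels do not say that they were separate cultures, and p-values then measure the spread between these libraries only.

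FGF4 is secreted by ES cells and binds FGF receptors, which pass the signal through RAS, RAF and MEK to the kinase ERK. In ES cells this signal is best known for preparing cells to leave the naive pluripotent state. ERK activity raises the transcription of immediate early genes such as Egr1 and of the ETS factors Etv4 and Etv5, and also that of its own inhibitors: Sprouty proteins (Spry) dampen the signal upstream of ERK, and dual-specificity phosphatases (Dusp) remove the activating phosphates from ERK and related kinases. Transcript levels of these genes are therefore often read as a record of ERK signalling, but ERK phosphorylation itself was not analysed here.

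Expression was given as TPM, transcripts per 1000000, a share of all transcripts corrected for transcript length. Levels may therefore be compared between genes, but a rise in TPM is a rise in share. With added spike-in RNA as the reference, the study reports that global transcription fell under mTORi in wild-type and Dnmt3a/b knockout cells. A rise in share therefore need not be a rise in transcript per cell. Each library summed to 1000000 TPM, had between 15178 and 15811 genes at 1 TPM or more and held no spike-in entries, and read depth is unknown. Dnmt3a and Dnmt3b transcripts were present in the DNMT3ABKO libraries at 16.8% to 20.2% and 8.90% to 14.1% of the KH mean at the same time point. The replicates of DNMT3ABKO at 0 h differed more than the other pairs (Pearson r of 0.985 across genes, against 0.993 to 0.996). Its residual SD of log2(TPM + 1) was 0.27 there and 0.13 to 0.18 elsewhere.

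Promoter windows from RefSeq (build GRCm38.p6) ran from 250 bases before to 30 bases after the annotated start. Windows of 5 of the 10 members were used (Fgf4, Fgfr2, Spry2, Dusp6 and Etv5). The other members were not searched, and whether RefSeq holds a window for them is not given here. Each window was searched on both strands for the octamers TGAATGAA, TGAATGGA, TCAATGAA and TCAATGGA, which are bound by Capicua (Cic), a repressor that ERK signalling inactivates. The Dusp6 window (chr10:99262981-99263260, plus strand) held 2 matches, whose first bases lay at -24 and 2 relative to the start, and the Spry2 window (chr14:105896790-105897069, minus strand) held 1, at -54. The windows of Fgf4, Fgfr2 and Etv5 held none of these octamers, and the first Etv5 window (chr16:22439541-22439820, minus strand) is printed as a window without a match. Etv5 was called in no comparison below, whereas Fgf4 and Fgfr2, also without a match, were called. Of all 32851 windows of this length, 3.65% held at least 1 match and 0.174% held 2 or more. Capitals mark the octamers, each read here on the opposite strand.
Dusp6: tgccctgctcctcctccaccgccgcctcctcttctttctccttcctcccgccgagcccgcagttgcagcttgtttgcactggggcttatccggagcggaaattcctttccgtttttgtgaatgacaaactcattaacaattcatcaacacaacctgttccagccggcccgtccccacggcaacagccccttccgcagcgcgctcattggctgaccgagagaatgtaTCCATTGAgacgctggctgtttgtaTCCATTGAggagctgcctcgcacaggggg
Spry2: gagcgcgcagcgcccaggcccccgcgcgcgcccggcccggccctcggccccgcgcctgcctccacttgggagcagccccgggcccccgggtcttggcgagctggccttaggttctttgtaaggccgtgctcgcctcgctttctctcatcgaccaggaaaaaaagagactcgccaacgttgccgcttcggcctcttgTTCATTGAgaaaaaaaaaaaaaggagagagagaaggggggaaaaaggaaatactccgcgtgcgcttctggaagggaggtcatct
Etv5: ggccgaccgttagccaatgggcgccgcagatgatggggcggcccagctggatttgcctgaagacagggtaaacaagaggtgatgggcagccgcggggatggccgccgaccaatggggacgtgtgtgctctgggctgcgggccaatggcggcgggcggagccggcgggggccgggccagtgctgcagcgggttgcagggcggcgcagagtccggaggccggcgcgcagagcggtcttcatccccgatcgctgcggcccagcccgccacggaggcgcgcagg
A match describes letters in the window and shows neither binding nor regulation.

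A further pair of short motifs was counted in the same windows: the ETS core (CCGGAA or CAGGAA), found in 39.3% of all windows, and the CCAAT box (CCAAT), found in 36.1%. The Spry2 and Fgfr2 windows and the second Etv5 window each held 1 ETS core. None of the matches of the 3 motifs overlapped another. The first Etv5 window held 3 CCAAT boxes, and the windows of Fgf4 and Dusp6 and the second Etv5 window 1 each.

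**Figure D1:**
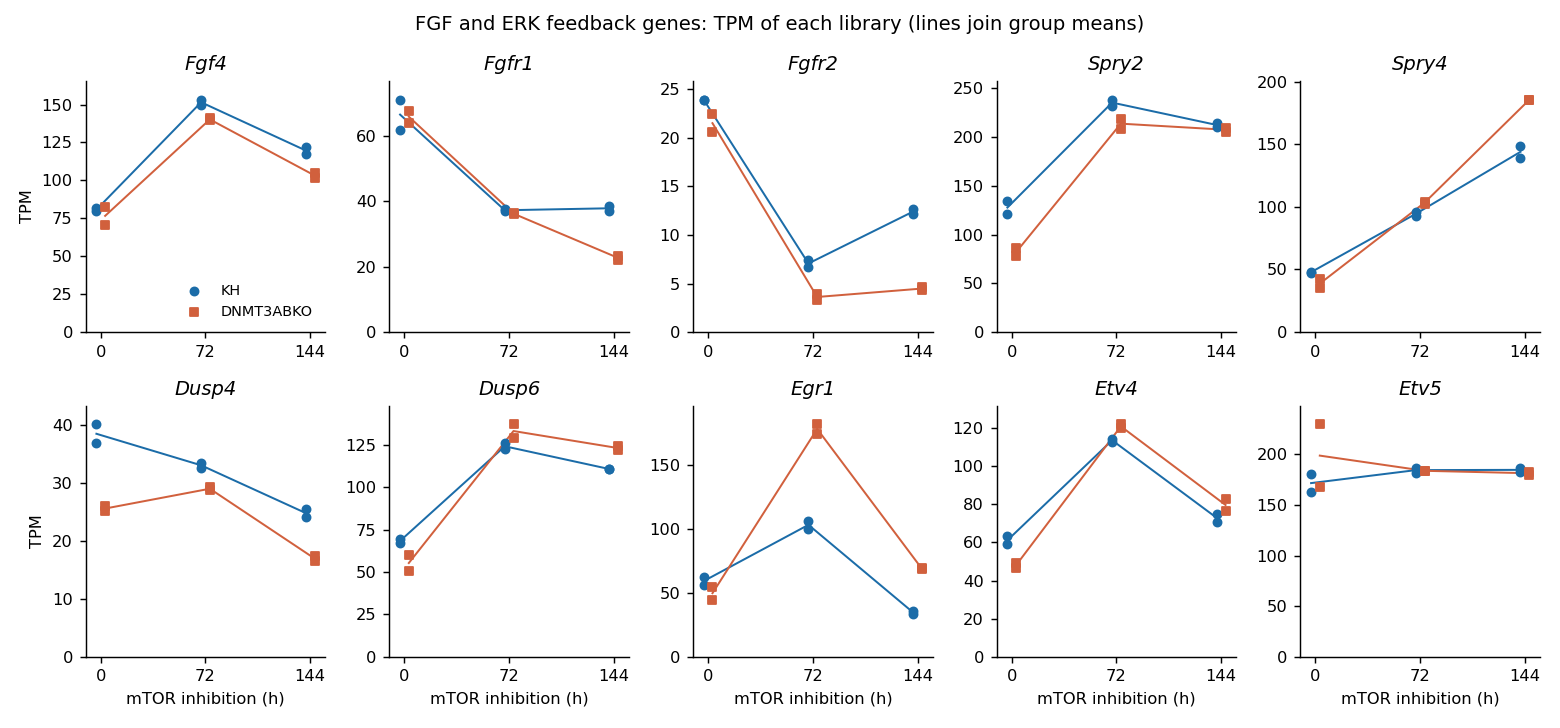
TPM of the 10 genes in each of the 12 libraries against hours of mTORi, with circles for KH, squares for DNMT3ABKO and lines through the group means (n = 2 per group). Fgf4, Spry2, Spry4, Dusp6 and Etv4 rose and Fgfr1 and Fgfr2 fell in both lines, Egr1 peaked at 72 h, and the Etv5 means stayed between 172 and 199 TPM.

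The first question was how these genes responded to mTOR inhibition within each line. In both lines the TPM of the ligand, of most feedback inhibitors and of Egr1 and Etv4 was higher after 72 h of mTORi, and that of both receptors was lower. In KH cells 9 of the 10 genes passed the test at 72 h, 6 higher and 3 lower, where 47.8% of all 15727 tested genes were called, 28.3% higher and 19.5% lower. In DNMT3ABKO cells 8 of the 10 passed at 72 h, 6 higher and 2 lower, against 56.0% of all genes, 34.3% higher and 21.6% lower. At 144 h, 9 were called in each line. In KH 5 were higher and 4 lower, beside 51.3% of all genes (27.4% higher and 23.9% lower), and in DNMT3ABKO 6 were higher and 3 lower, beside 57.6% of all genes (31.4% higher and 26.2% lower). The median log2 fold change of the 10 genes at 72 h was 0.82 in KH and 1.06 in DNMT3ABKO, and the medians over all tested genes were 0.08 and 0.12. At 144 h the members' medians were 0.18 and 0.45, beside 0.05 for all genes in both lines. Fold changes are on the log2(TPM + 1) scale, intervals are at 95%, and a gene was called where limma's Benjamini-Hochberg adjusted p over all tested genes was under 0.05. The fit used a variance per gene shared by all groups, so the intervals do not widen for the larger spread of DNMT3ABKO at 0 h. All comparisons with 0 h within a line share the same pair of untreated libraries.

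Fgf4 (chromosome 7, 144847367 to 144865243, plus strand of mm10) encodes the FGF that ES cells themselves secrete. Its TPM in KH was 79.9 and 81.6 at 0 h, 153 and 149.8 at 72 h, then 122 and 117 at 144 h. In DNMT3ABKO it was 70.7 and 82.6, then 139 and 141, then 102 and 105. In each line the libraries at 72 h were the highest, those at 0 h the lowest, and no time points overlapped. The log2 fold change at 72 h was 0.90 in KH (0.74 to 1.06, adjusted p = 1.24e-05) and 0.87 in DNMT3ABKO (0.70 to 1.03, adjusted p = 8.58e-06). At 144 h it was 0.56 and 0.43. Between 72 and 144 h Fgf4 fell by 0.34 in KH (adjusted p = 0.00927) and by 0.44 in DNMT3ABKO (adjusted p = 0.00166). The decline in KH was no longer called without KH 72 h replicate 1 (adjusted p = 0.0716) or without KH 144 h replicate 2 (adjusted p = 0.0703).

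The receptor transcripts went the other way. Fgfr1 (chromosome 8, 25513654 to 25575718, plus strand), the main FGF receptor of ES cells, had 61.9 and 71.0 TPM in untreated KH cells, 37.0 and 37.5 at 72 h, then 38.6 and 37.1 at 144 h. In DNMT3ABKO the values were 67.7 and 64.0, then 35.9 and 36.5, then 23.2 and 22.1. The lines overlapped at 0 h, had means of 37.2 and 36.2 TPM at 72 h and were apart at 144 h, after a further step down in DNMT3ABKO. The log2 fold change at 72 h was -0.82 in KH (adjusted p = 2.8e-05) and -0.84 in DNMT3ABKO (adjusted p = 1.2e-05). Between 72 and 144 h it was 0.02 in KH (-0.15 to 0.19, adjusted p = 0.879), whereas Fgfr1 fell by 0.65 in DNMT3ABKO (adjusted p = 0.000161).

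Fgfr2, the receptor best known from the primitive endoderm branch of the early embryo, had the lowest level of the 10 genes in each of the 6 groups. In KH its TPM was 23.9 in both replicates at 0 h, 6.70 and 7.43 at 72 h, then 12.7 and 12.2 at 144 h. In DNMT3ABKO it was 20.6 and 22.4, then 3.92 and 3.31, then 4.30 and 4.67. The KH libraries at 144 h lay between those at 0 and 72 h, and both DNMT3ABKO libraries at 144 h lay above those at 72 h but under 5 TPM. At 72 h the log2 fold change was -1.63 in KH (-1.84 to -1.41, adjusted p = 1.68e-06) and -2.29 in DNMT3ABKO (-2.50 to -2.07, adjusted p = 1.1e-07). From 72 to 144 h the gene rose by 0.73 in KH (adjusted p = 0.000532), and the change in DNMT3ABKO was 0.25 (0.04 to 0.46, adjusted p = 0.0801). After median-ratio rescaling the DNMT3ABKO rise was called too (0.31, adjusted p = 0.0152), and the difference between the lines in this step was not tested. The annotated Fgfr2 gene runs on chromosome 7 from 130162451 to 133123350 on the minus strand, and 314 of its 10328 exon bases are shared with Ctbp2 on that strand, and how reads on these bases were assigned is not given in the sources used here. For Fgfr1 the shared part is 164 of 9875 bases, with Gm16159 on the other strand, and the other 8 genes share no exon bases with another gene.

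Fibroblast markers, which feeder cells express, fell from 0 to 72 h in both lines, as the receptors did. From 72 to 144 h they fell further in both lines, and the receptors varied. In KH the log2 fold change of this step was 0.02 for Fgfr1, not called, and 0.73 for Fgfr2. In DNMT3ABKO it was -0.65 for Fgfr1 and 0.25, not called, for Fgfr2. The summed TPM of 18 fibroblast markers was 3005 and 3344 in KH at 0 h, 1425 and 1471 at 72 h, then 703 and 789 at 144 h, and in DNMT3ABKO it was 3459 and 3708, then 1202 and 1256, then 549 and 562. Of the 16 tested, 15 were called lower at 72 h in each line, and at 144 h 15 in KH and 16 in DNMT3ABKO. The most a macrophage list of 10 genes summed to was 304 TPM at 0 h and 37.8 TPM at 144 h. None of the 18 fibroblast markers was at 0 in both replicates of a group, and of the macrophage markers only C1qb was, in KH at 144 h. The sum of 10 ES cell markers went up, from 2869 and 3096 to 4117 and 4240 TPM at 72 h in KH and from 2681 and 2892 to 4024 and 4032 TPM in DNMT3ABKO, with a median log2 fold change over the list of 0.44 in KH and 0.36 in DNMT3ABKO. Of these 10 markers 9 were called higher at 72 h and 8 at 144 h in KH. In DNMT3ABKO 8 were higher and 1 lower at 72 h, then 6 higher and 1 lower at 144 h. A trophoblast list of 8 genes, 5 of them tested, summed to 106 and 123 TPM in KH at 0 h, 43.9 and 47.7 at 72 h, then 47.7 and 49.9 at 144 h. In DNMT3ABKO it summed to 61.8 and 75.9, then 15.9 and 17.2, then 22.1 and 22.2. Of the 5, 4 were lower at 72 h in each line (1 was higher in DNMT3ABKO), and at 144 h 4 were lower in KH and 5 in DNMT3ABKO. Elf5 was at 0 in both KH libraries at 144 h. A primitive endoderm list of 8 genes, 4 of them tested, summed to 100.1 and 100.3 TPM in KH at 0 h, 79.6 and 81.5 at 72 h, then 69.4 and 81.8 at 144 h, and to 87.3 and 95.4, then 74.9 in both replicates, then 59.5 and 60.7 in DNMT3ABKO. Of the 4, 2 were lower at 72 h and 3 at 144 h in each line. In bulk samples fewer cells of a type and less RNA per cell cannot be told apart, and the part of these shifts in the changes of the 10 genes was not tested.

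**Figure D2:**
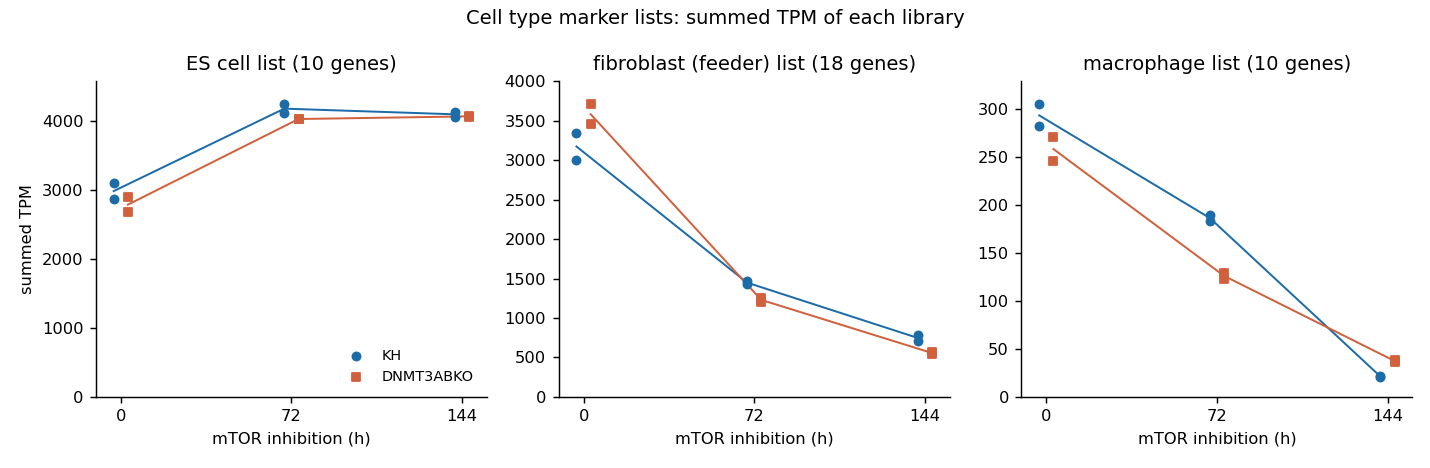
Summed TPM of the ES cell, fibroblast and macrophage marker lists in each library against hours of mTORi (circles KH, squares DNMT3ABKO, lines through group means). The fibroblast sum was at least 3005 TPM in every 0 h library and at most 789 TPM in every 144 h library, and the ES cell sum was at least 4024 TPM in every treated library.

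Among the feedback inhibitors, Spry2, Spry4 and Dusp6 rose in both lines and Dusp4 ended lower. Spry2 (chromosome 14, 105891947 to 105896819, minus strand) had 121 and 135 TPM in KH at 0 h, 238 and 232 at 72 h, then 211 and 214 at 144 h. In DNMT3ABKO it had 77.7 and 86.6, then 219 and 209, then 206 and 209.5. DNMT3ABKO libraries lay below the KH libraries at 0 h and, by less, at 72 h and 144 h. At 72 h the log2 fold change in DNMT3ABKO was 1.37 (1.21 to 1.53, adjusted p = 4.59e-07), against 0.88 in KH (0.72 to 1.04, adjusted p = 1.29e-05). At 144 h the fold changes were 1.33 and 0.73, and neither line differed between 72 and 144 h beyond the threshold (adjusted p = 0.181 in KH and 0.722 in DNMT3ABKO). With the compared groups alone the KH change between 72 and 144 h was called lower (-0.15, adjusted p = 0.0241).

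Spry4 (chromosome 18, 38586268 to 38601268, minus strand), another Sprouty gene, was the member with the largest rise in both lines at 144 h. Its TPM in KH was 47.5 and 48.3 at 0 h, 96.0 and 92.9 at 72 h, then 149 and 139 at 144 h. In DNMT3ABKO it was 35.3 and 42.2, then 102 and 104, then 185 and 186. The 3 time points were fully separated in each line, and Spry4 was the only member higher at 144 h than at 72 h in both lines by the test (log2 fold change 0.60 in KH and 0.84 in DNMT3ABKO, adjusted p = 0.000596 and 4.31e-05). Against 0 h the log2 fold change at 144 h was 1.57 in KH (1.39 to 1.75, adjusted p = 2.59e-07) and 2.23 in DNMT3ABKO (2.06 to 2.41, adjusted p = 1.41e-08), or ratios of the mean TPM of 3.01 and 4.79.

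Dusp6 (chromosome 10, 99263231 to 99267489, plus strand) encodes a cytoplasmic phosphatase that acts on ERK. It had 67.1 and 69.5 TPM in KH at 0 h, 126 and 122 at 72 h, then 110.5 and 111 at 144 h. In DNMT3ABKO it had 50.8 and 59.8, then 137 and 129, then 122 and 124. The libraries at 72 h were the highest in each line, with log2 fold changes of 0.85 in KH (adjusted p = 2.34e-05) and 1.26 in DNMT3ABKO (adjusted p = 1.11e-06). The change from 72 to 144 h was -0.16 and -0.11 and missed the threshold in both lines (adjusted p = 0.163 and 0.328). The KH value was called when the DNMT3ABKO 0 h replicate 1 or replicate 2 was left out (adjusted p = 0.0294 and 0.0292) and in a fit of the compared groups alone (adjusted p = 0.0212).

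Dusp4 (chromosome 8, 34807297 to 34819894, plus strand), a nuclear phosphatase of ERK and related kinases, did not follow Dusp6. In KH it had 36.8 and 40.1 TPM at 0 h, 33.5 and 32.6 at 72 h, then 25.4 and 24.1 at 144 h, a stepwise decline without overlap. In DNMT3ABKO it had 25.2 and 25.9, then 28.7 and 29.3, then 17.3 and 16.6. At 144 h it was lower in both lines, by a log2 fold change of -0.61 in KH (adjusted p = 6.18e-05) and -0.57 in DNMT3ABKO (adjusted p = 7.46e-05). At 72 h the KH change of -0.21 passed narrowly (adjusted p = 0.0299), and the DNMT3ABKO value of 0.17 did not (0.02 to 0.33, adjusted p = 0.0561). The KH call at 72 h was lost without KH 0 h replicate 2 (adjusted p = 0.167), without KH 72 h replicate 1 or 2 (adjusted p = 0.0859 and 0.146), with the compared groups alone (adjusted p = 0.0595) and with the replicate number as a block (adjusted p = 0.0656).

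The transcription factors downstream of ERK differed from one another. Egr1 (chromosome 18, 34859823 to 34864984, plus strand), an immediate early zinc finger factor, had 56.0 and 62.4 TPM in KH at 0 h, 106 and 99.97 at 72 h, then 33.4 and 35.8 at 144 h. In DNMT3ABKO it had 44.7 and 54.8, then 182 and 174, then 68.5 and 69.2. KH libraries at 144 h lay below their 0 h libraries, and DNMT3ABKO libraries at 144 h lay above theirs. The log2 fold change at 72 h was 0.79 in KH (0.58 to 1.01, adjusted p = 0.000135) and 1.83 in DNMT3ABKO (1.61 to 2.04, adjusted p = 4.49e-07). At 144 h it was -0.76 in KH (adjusted p = 0.000128) and 0.47 in DNMT3ABKO (adjusted p = 0.00201), and from 72 to 144 h Egr1 fell by 1.55 and by 1.36.

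Etv4 (chromosome 11, 101769742 to 101785371, minus strand) is an ETS factor of the PEA3 group. In KH it had 59.2 and 63.1 TPM at 0 h, 114 and 113 at 72 h, then 75.1 and 70.7 at 144 h. In DNMT3ABKO it had 46.8 and 49.4, then 120 and 122, then 82.8 and 76.5. Like Fgf4 it was highest at 72 h in both lines and still above its start at 144 h. The log2 fold change at 72 h was 0.88 in KH (adjusted p = 7.69e-06) and 1.31 in DNMT3ABKO (adjusted p = 3.74e-07), and at 144 h it was 0.25 (adjusted p = 0.011) and 0.72 (adjusted p = 1.06e-05). The KH value at 144 h was not called without KH 0 h replicate 1 (adjusted p = 0.0718) or KH 144 h replicate 1 (adjusted p = 0.0894).

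Etv5 (chromosome 16, 22381309 to 22439719, minus strand), of the same PEA3 group, was among the highest of the 10 genes and passed in no comparison. Its TPM was 163 and 181 in KH at 0 h, 187 and 182 at 72 h, then 187 and 183 at 144 h. In DNMT3ABKO it was 168 and 229.8 at 0 h, then 184 in both replicates, then 183 and 180.1. The spread of DNMT3ABKO at 0 h (mean 199 TPM, SD 43.8, n = 2) was the widest of any member in any group, and the treated libraries lay between those replicates. The log2 fold change at 72 h was 0.11 in KH (-0.16 to 0.37, adjusted p = 0.497) and -0.10 in DNMT3ABKO (-0.36 to 0.17, adjusted p = 0.518). Without DNMT3ABKO 0 h replicate 1 the DNMT3ABKO change was called as lower at 72 h (adjusted p = 0.00273) and at 144 h (adjusted p = 0.00172). After median-ratio rescaling the 72 h change in DNMT3ABKO was also called lower (-0.23, adjusted p = 0.0361).

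**Figure D3:**
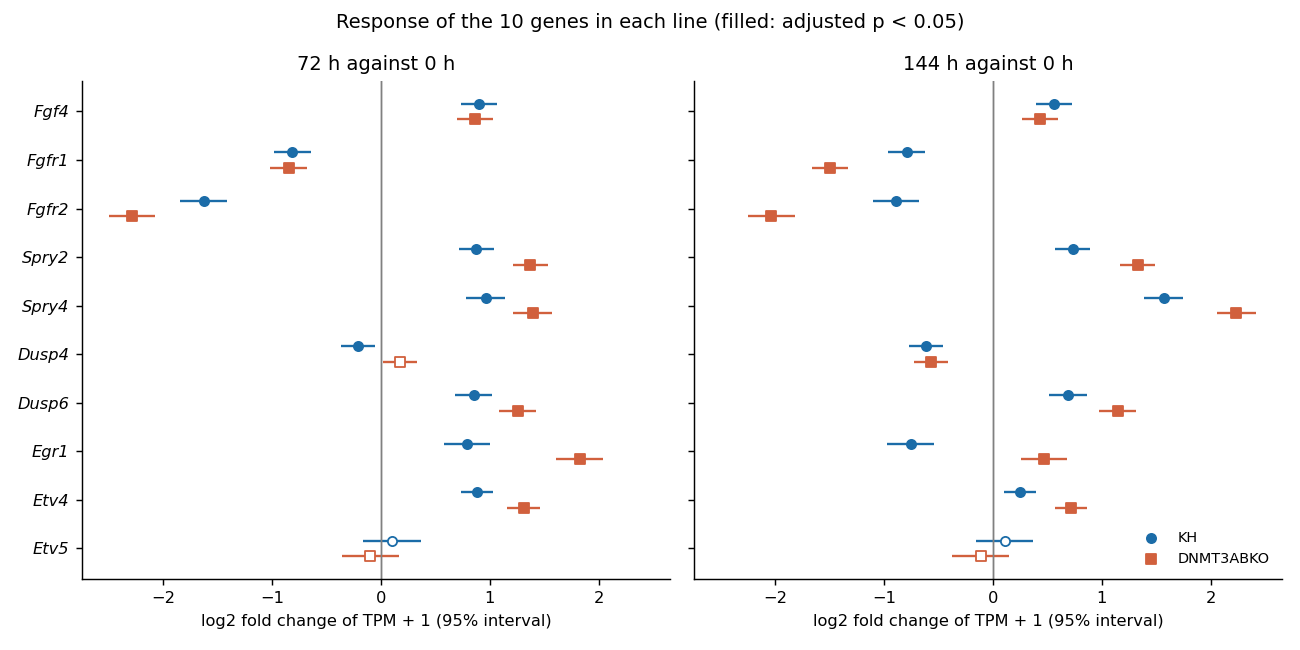
Log2 fold change of TPM + 1 against 0 h at 72 h (left) and 144 h (right) for the 10 genes, with circles for KH, squares for DNMT3ABKO and bars for 95% intervals. Filled symbols passed an adjusted p of 0.05, and Egr1 at 144 h is the gene with called values on opposite sides of 0, -0.76 in KH and 0.47 in DNMT3ABKO.

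Between 72 and 144 h, 6 of the 10 genes were called in KH (2 higher and 4 lower) and 6 in DNMT3ABKO (1 higher and 5 lower). Of all genes 22.9% were called in KH, 7.24% higher and 15.6% lower, and 27.3% in DNMT3ABKO, 8.81% higher and 18.5% lower. Spry4 rose and Fgf4, Dusp4, Egr1 and Etv4 fell in both lines. Fgfr2 was also called higher in KH and Fgfr1 lower in DNMT3ABKO, and the difference between the lines in this step was not tested. The members' median log2 fold change was -0.16 in KH and -0.27 in DNMT3ABKO, beside -0.04 and -0.06 for all genes.

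By level, the order of the genes is given for the untreated wild-type line and for DNMT3ABKO at 144 h, groups that differ in both line and time. In untreated KH cells Etv5 (172 ± 12.6 TPM, SD, n = 2) and Spry2 (128 ± 9.52) led, and Dusp6, Fgfr1, Etv4 and Egr1 followed Fgf4 with means between 59.2 and 68.3 TPM, where each overlapped its neighbour. Spry4 (47.9 ± 0.57 TPM), Dusp4 (38.5 ± 2.32) and Fgfr2 were the lowest. In DNMT3ABKO at 144 h Spry2 (208 ± 2.71 TPM), Spry4 (185 ± 0.25) and Etv5 (181 ± 1.90) led. Fgfr1 (22.7 ± 0.74 TPM), Dusp4 (17.0 ± 0.54) and Fgfr2 (4.48 ± 0.27) closed the order.

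The second question was whether the lines differed at a given time. Before treatment, the feedback inhibitors and Etv4 were lower in DNMT3ABKO than in KH: 5 of the 10 genes were called, all lower (Spry2, Spry4, Dusp4, Dusp6 and Etv4), where 9.06% of all genes were called, 4.92% higher and 4.14% lower. The members' median log2 difference (DNMT3ABKO against KH) was -0.28, and that of all genes was -0.05. Spry2 had the largest difference, -0.63 (-0.79 to -0.47, adjusted p = 0.000482), and Dusp4 followed with -0.57 (adjusted p = 0.000742). Etv4 (-0.34), Dusp6 (-0.30) and Spry4 (-0.30) lay closer to the threshold (adjusted p = 0.012, 0.0363 and 0.0432). Both DNMT3ABKO libraries lay below both KH libraries for these 5, but also for Fgfr2 and Egr1, which were not called. This separation therefore does not set the called genes apart, and its share over all genes is not given here.

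These baseline calls were the least stable of the set. With the compared groups alone limma called none of the 5 (Spry2, Dusp4 and Etv4, 3 of the 10 genes, had an unadjusted p under 0.05), and with the replicate number as a block 2 were, Spry2 and Dusp4. Leaving out single libraries gave between 2 and 7 calls. Spry4 and Dusp6 were each lost without any 1 of 11 libraries, at adjusted p of up to 0.18 and 0.177 (both without KH 0 h replicate 2), and Etv4 was lost without KH 0 h replicate 2 (adjusted p = 0.0883). Without DNMT3ABKO 0 h replicate 2, Fgf4 (adjusted p = 0.0306) and Egr1 (adjusted p = 0.00648) were called too, and without DNMT3ABKO 0 h replicate 1, Etv5 was (adjusted p = 0.004). Without DNMT3ABKO 0 h replicate 2 the calls over all genes also went up, from 1425 to 5039 of the 15727 tested. At 0 h the fibroblast sum was higher in DNMT3ABKO (3459 and 3708 TPM, against 3005 and 3344), with 3 of 16 tested markers called higher. The trophoblast sum was lower (61.8 and 75.9 TPM, against 106 and 123), with 3 of 5 called lower. The part of these shifts was not tested.

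At 72 h Fgfr2 and Egr1 differed between the lines in the fit of all groups, 2 of 10 genes where 19.3% of all genes were called, 9.26% higher and the rest lower. Fgfr2 was lower in DNMT3ABKO, with a log2 difference of -0.81 (-1.02 to -0.59, adjusted p = 0.000273) and a ratio of mean TPM of 0.512. Egr1 was higher, with a difference of 0.78 (0.57 to 1.00, adjusted p = 0.00035). Both calls held in all 17 alternative settings and left-out libraries. For the 8 genes not called the differences ran from -0.18 to 0.13. Dusp4 (-0.18, -0.34 to -0.03, adjusted p = 0.1), Spry2 (-0.14, -0.30 to 0.02), Fgf4 (-0.11, -0.28 to 0.05) and Fgfr1 (-0.04) had both DNMT3ABKO libraries below both KH libraries. Spry4, Dusp6 and Etv4 had both above, and the share of all genes separated in this way is not given here. With the compared groups alone Dusp4 and Spry2 were called as well (adjusted p = 0.0356 and 0.0482). The interval with the highest bound was that of Spry4 (-0.05 to 0.31). The macrophage sum was 183 and 189 TPM in KH and 123 and 129 in DNMT3ABKO, with 9 of 10 markers called lower, and 3 of 5 trophoblast markers were lower too. The fibroblast sum was 1425 and 1471 against 1202 and 1256, with 2 of 16 markers called lower, and the part of these shifts was not tested.

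At 144 h, 5 of the 10 genes differed between the lines, beside 26.5% of all genes (15.5% lower and the rest higher). The receptors and Dusp4 were lower in DNMT3ABKO: Fgfr2 by a log2 difference of -1.29 (-1.50 to -1.08, adjusted p = 5.17e-06), Fgfr1 by -0.71 (-0.88 to -0.55, adjusted p = 9.35e-05) and Dusp4 by -0.52 (adjusted p = 0.000466). Egr1 was higher by 0.97 (0.76 to 1.19, adjusted p = 5.36e-05), a ratio of mean TPM of 1.99, and Spry4 by 0.36 (0.19 to 0.54, adjusted p = 0.00834). Spry4 was not called with the replicate block (adjusted p = 0.0639), without KH 144 h replicate 2 (adjusted p = 0.0702) or without DNMT3ABKO 144 h replicate 2 (adjusted p = 0.0502). Fgf4 had a difference of -0.21 and missed the threshold (adjusted p = 0.0606), but passed without DNMT3ABKO 0 h replicate 1 or 2 (adjusted p = 0.00604 and 0.00599). Dusp6 (0.15, adjusted p = 0.183) was called without the same libraries (adjusted p = 0.0358 and 0.0356). The fibroblast sum at 144 h was 703 and 789 TPM in KH and 549 and 562 in DNMT3ABKO. Of 16 tested markers 2 were called higher and 2 lower, with a median log2 difference of 0.01. Fn1 alone had means of 483 and 287 TPM. The macrophage sum was 20.9 and 21.3 against 36.7 and 37.8, with 5 of 10 markers called higher. Cd68 made up 15.1 and 22.3 TPM of these sums on average. Only 2 macrophage markers in KH and 4 in DNMT3ABKO reached 1 TPM in both replicates. The trophoblast sum was 47.7 and 49.9 TPM against 22.1 and 22.2, with 4 of 5 markers called lower in DNMT3ABKO. The part of these shifts was not tested.

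**Figure D4:**
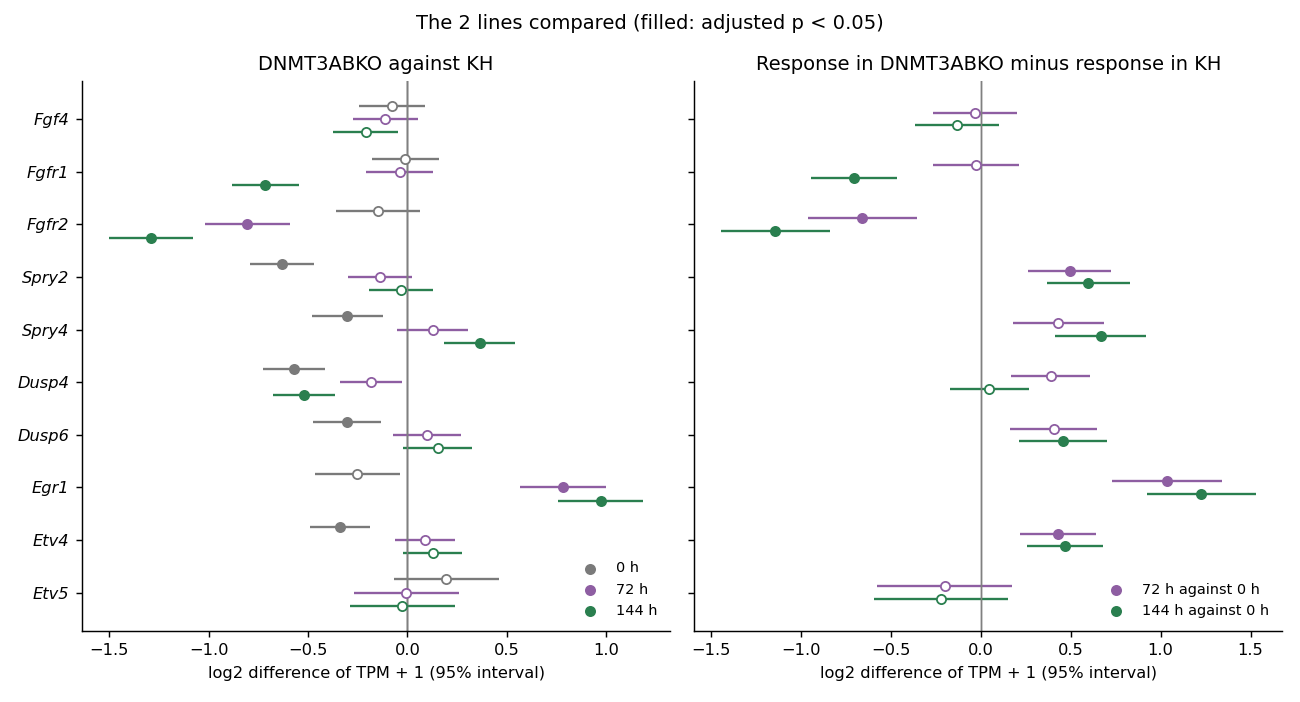
Left, log2 difference of TPM + 1 between DNMT3ABKO and KH at 0, 72 and 144 h, and right, the response of DNMT3ABKO minus that of KH at 72 and 144 h, for the 10 genes with 95% intervals (filled where the adjusted p was under 0.05). Fgfr2 and Egr1 move apart from 0 in opposite directions after treatment, to -1.29 and 0.97 at 144 h.

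The third question was whether the response to mTORi itself differed between the lines, tested as the interaction of line and time. At 144 h the response differed for 7 of the 10 genes, 5 upward and 2 downward, where 8.59% of all genes were called, 4.89% upward and 3.70% downward. Spry4, Spry2, Etv4 and Dusp6 rose further in DNMT3ABKO, from a lower start at 0 h. None of their calls at 0 h held in all 17 alternatives. In the fit of all groups the levels at 144 h did not differ between the lines beyond the threshold for Spry2 (-0.03, adjusted p = 0.781), Etv4 (0.13, adjusted p = 0.201) or Dusp6 (0.15, adjusted p = 0.183). Egr1 ended higher than its start in DNMT3ABKO and lower in KH, and the fall of Fgfr2 and Fgfr1 was deeper in DNMT3ABKO. The difference in response was 1.22 for Egr1 (0.92 to 1.53, adjusted p = 0.000269), 0.67 for Spry4 (0.41 to 0.92, adjusted p = 0.00524) and 0.60 for Spry2 (0.37 to 0.83, adjusted p = 0.00548). For Fgfr2 it was -1.14 (-1.44 to -0.84, adjusted p = 0.000425) and for Fgfr1 -0.70 (-0.94 to -0.46, adjusted p = 0.00266). These 5 held in all 17 alternatives. Etv4 (0.47, adjusted p = 0.014) and Dusp6 (0.46, adjusted p = 0.0298) did not: with the compared groups alone both were lost (adjusted p = 0.0729 and 0.0998), Etv4 was lost without KH 144 h replicate 2 (adjusted p = 0.0665) or DNMT3ABKO 144 h replicate 1 (adjusted p = 0.0681), and Dusp6 without any 1 of 8 KH and DNMT3ABKO libraries (adjusted p of 0.056 to 0.103) and with the replicate block (adjusted p = 0.0647). Fgf4 (-0.13, -0.37 to 0.10), Dusp4 (0.05, -0.17 to 0.27) and Etv5 (-0.22, -0.60 to 0.15) were not called, and Etv5 was called without DNMT3ABKO 0 h replicate 1 (adjusted p = 0.00918).

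At 72 h the response differed for 4 of the 10 genes, 3 upward and 1 downward, beside 5.23% of all genes (3.38% upward and 1.86% downward). These were Egr1 (1.04, 0.73 to 1.34, adjusted p = 0.00226), Fgfr2 (-0.66, adjusted p = 0.0205), Spry2 (0.49, adjusted p = 0.0218) and Etv4 (0.43, adjusted p = 0.0303). Dusp4 (0.39, adjusted p = 0.0541), Spry4 (0.43, adjusted p = 0.0598) and Dusp6 (0.40, adjusted p = 0.0664) fell just outside. Egr1 was the only one of the 4 that held in all 17 alternatives. Fgfr2 was lost without any 1 of 5 libraries (adjusted p of 0.0519 to 0.101), Spry2 without any 1 of 5 (0.0637 to 0.102) and Etv4 without any 1 of 7 (0.052 to 0.124). Without DNMT3ABKO 0 h replicate 2, Spry4, Dusp4 and Dusp6 were called (adjusted p = 0.00235, 0.0226 and 0.00313), and without replicate 1 of that group Spry4 and Etv5 were (adjusted p = 0.0449 and 0.0182). The count was 1 with the replicate block, 1 with the compared groups alone, 7 after rescaling by median ratios, and between 1 and 7 with single libraries left out. Over all genes the count was 823, beside 545 with the replicate block, 437 with the compared groups alone and 1259 after rescaling. With single libraries left out it ran from 365 (without KH 72 h replicate 1) to 2799 (without DNMT3ABKO 0 h replicate 2), and was 399 without DNMT3ABKO 72 h replicate 2, 403 without KH 72 h replicate 2, 436 without DNMT3ABKO 72 h replicate 1 and 501 without KH 0 h replicate 1. In each of these contrasts the lower start of Spry2, Spry4, Dusp6 and Etv4 in DNMT3ABKO at 0 h enters the difference, and in the fit of all groups their levels at 72 h did not differ between the lines beyond the threshold.

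Over the 12 libraries, the members closest to each other in log2(TPM + 1) were Spry2 and Dusp6 (Pearson r = 0.971) and Fgf4 and Etv4 (r = 0.933), and Fgfr1 and Spry4 ran opposite (r = -0.946). These r describe 6 groups that share libraries and scaling and are not tests. Of all tested named genes, those most like each member other than Fgfr2 are given here, and they were Zfp626 and Dgka for Fgf4 (r = 0.991 and 0.989) and Ccnd1 and Lrp5 for Fgfr1 (0.990 and 0.987). For the Sprouty genes they were Dhx32 and Phf12 for Spry2 (0.989 and 0.985) and Rsrp1 and Foxo3 for Spry4 (0.993 and 0.987). For the phosphatases they were Cth and Zfp518b for Dusp4 (0.974 and 0.968) and Gpa33 and Ccdc28a for Dusp6 (0.990 in both). For the transcription factors they were Cpt2 and Smyd1 for Egr1 (0.977 and 0.969), Axin2 and Smyd4 for Etv4 (0.986 and 0.984), and Ip6k2 and Pcdhga2 for Etv5 (0.865 and 0.854).

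The 10 genes were then set beside 72 other listed genes of the pathway, of which 71 were found and 66 passed the filter (Fgf3, Fgfr3, Fgfr4, Klb and Kl did not). At 72 h 24 of the 66 were higher and 15 lower in KH, and 29 higher and 17 lower in DNMT3ABKO, beside 47.8% and 56.0% of all genes called in either direction. At 144 h 19 were higher and 19 lower in KH, and 25 higher and 21 lower in DNMT3ABKO, beside 51.3% and 57.6%. The median log2 fold change at 72 h was 0.12 in KH and 0.26 in DNMT3ABKO, beside 0.08 and 0.12 for all genes. At 144 h it was 0.004 in KH and 0.11 in DNMT3ABKO, beside 0.05 for all genes in both lines.

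Of 11 other feedback inhibitors tested, 7 were called at 72 h in KH and 10 in DNMT3ABKO, each of them higher, where 28.3% and 34.3% of all genes were higher, with median log2 fold changes over the 11 of 0.51 and 0.54. At 144 h 6 were higher and 2 lower in KH and 6 higher and 1 lower in DNMT3ABKO, beside 27.4% higher and 23.9% lower of all genes in KH and 31.4% and 26.2% in DNMT3ABKO. Spry1, a further Sprouty gene, had 8.45 and 10.8 TPM in KH at 0 h, 22.5 and 18.8 at 72 h, then 11.8 in both replicates at 144 h. Its log2 fold change was 1.03 in KH and 1.23 in DNMT3ABKO at 72 h, and 0.28 and 0.17, not called, at 144 h, unlike the lasting rise of Spry4. Spred1, a Sprouty-related inhibitor of RAS signalling, had log2 fold changes of 0.78 and 1.20 at 72 h, then 0.79 and 0.88 at 144 h. Dusp9, an ERK phosphatase, had 0.77 and 0.80 at 72 h.

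Of the 9 other ligands tested, 4 were higher and 3 lower in KH at 72 h, and 1 was higher and 4 lower in DNMT3ABKO. Over all genes 28.3% were higher and 19.5% lower in KH, and 34.3% and 21.6% in DNMT3ABKO. Fgf8, a ligand of the primed and gastrulating epiblast, had 16.4 and 13.8 TPM in KH at 0 h and 1.07 and 0.92 at 72 h, and 5.14 and 5.29 then 0.67 and 1.65 in DNMT3ABKO. Fgf5, a marker of primed epiblast, had 11.5 and 11.8 TPM in KH at 0 h and 0.74 and 0.70 at 72 h. The log2 fold changes at 72 h in KH were -3.01 for Fgf8 and -2.88 for Fgf5. In contrast to these low ligands, Fgf1 rose to 3.13 and 2.77 TPM in KH and 11.1 and 11.8 TPM in DNMT3ABKO at 144 h (log2 fold changes 1.66 and 2.96). Fgf4 was at 70.7 TPM or more in every library, while the highest value of any other listed ligand was 34.6 TPM, for Fgf17 in KH at 144 h. Among receptors and co-receptors, 4 were tested, and the heparan sulfate carrier Sdc4 had the largest fall, with log2 fold changes of -2.87 in KH and -2.76 in DNMT3ABKO at 144 h.

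Of 10 adaptors and regulators of RAS, 1 was higher and 1 lower at 72 h in each line, the lower one being Ptpn11, the phosphatase SHP2, at -0.65 in KH and -0.67 in DNMT3ABKO. Of 11 RAS, RAF, MEK and ERK genes, 3 were higher and 3 lower at 72 h in KH and 5 higher and 3 lower in DNMT3ABKO, where 47.8% and 56.0% of all genes were called. Map2k1, which encodes MEK1, fell by 0.75 in KH and by 0.79 in DNMT3ABKO at 144 h. Hras fell by 0.46 and by 0.61.

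Other ERK targets and effectors split evenly in KH. Of 21 tested, 7 were higher and 7 lower at 72 h in KH, and 11 higher and 7 lower in DNMT3ABKO. The shares over all genes were 28.3% higher and 19.5% lower in KH, and 34.3% and 21.6% in DNMT3ABKO. Erf, an ETS repressor that ERK expels from the nucleus, had 70.2 and 74.3 TPM in KH at 0 h, 176 and 165 at 72 h, then 205 and 207 at 144 h, and its log2 fold change at 144 h was 1.50 in KH and 1.89 in DNMT3ABKO. Myc had log2 fold changes of 1.23 and 1.74 at 72 h. Fos, another immediate early gene, whose product pairs with JUN proteins, was lower than at 0 h in both lines at 144 h (-0.72 in KH and -0.38 in DNMT3ABKO), after 1.07 and 1.54 at 72 h. Fosl2 had the largest fall of the group at 144 h in KH, -1.97, and Elk3 that in DNMT3ABKO, -1.63.

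**Figure D5:**
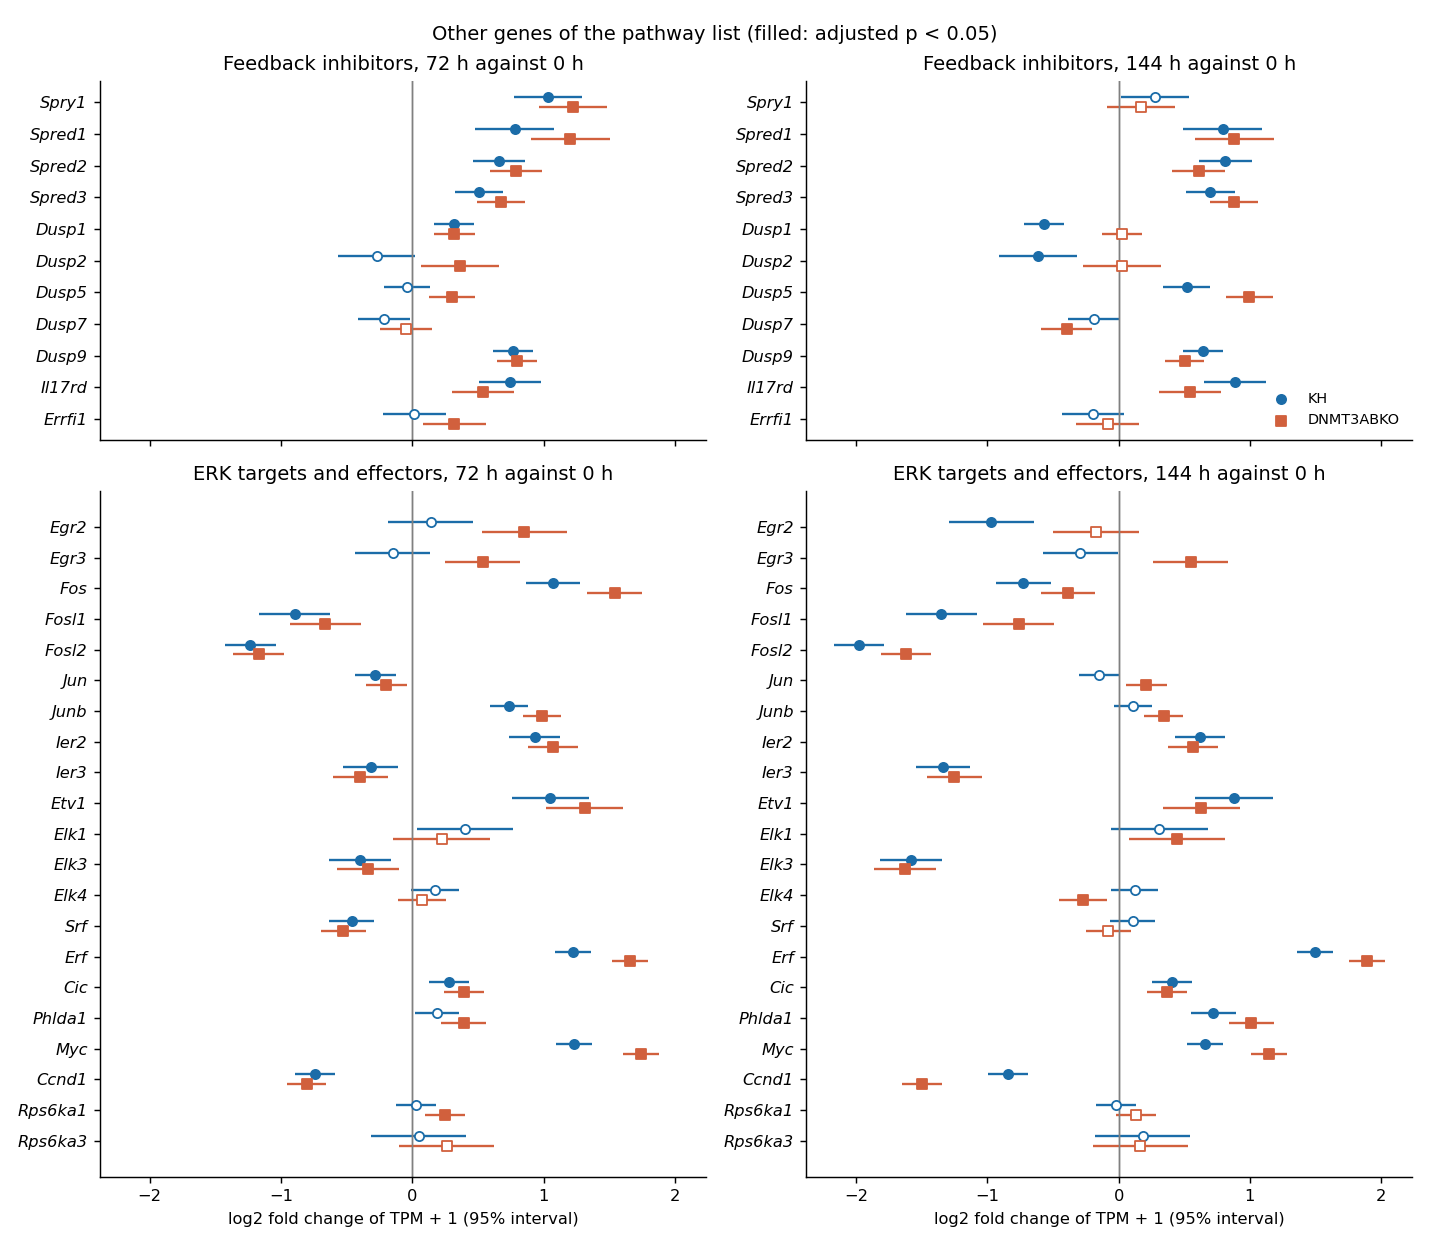
Log2 fold change of TPM + 1 against 0 h at 72 h (left) and 144 h (right) for 11 other feedback inhibitors (top) and 21 other ERK targets and effectors (bottom), with circles for KH, squares for DNMT3ABKO and bars for 95% intervals. Filled symbols passed an adjusted p of 0.05, and in each line every feedback inhibitor called at 72 h was higher.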

How the data were processed

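Total RNA of 12 ES cell libraries was depleted of ribosomal RNA and sequenced. Per the submitters' processing notes, reads were trimmed with cutadapt 2.4, aligned to mm10 with STAR 2.7.3a and quantified with StringTie 2.0, and the authors deposited 1 TPM value per gene and library. The strand setting of the counting is not given in the sources used here. TPM are not counts, so the count-based test of the study's methods was not used. The filter kept genes averaging 1 TPM or more across all 12 libraries, which were tested on log2(TPM + 1) with limma 3.58.1 in R 4.3.3 (6 group means fitted together, moderated variances with a trend), with p-values adjusted by Benjamini-Hochberg over all 15727 genes in each of 11 contrasts. Entries that repeated a gene identifier were summed. The script was tested on simulated data. The alternatives were a pseudocount of 0.1, no filter, median-ratio rescaling, the compared groups alone, the replicate number as a block and each library left out in turn. The 10 members, the pathway list, the marker lists and the tests were chosen with earlier results of these data known. All members are named, of the pathway list at most 3 genes per role and contrast with the largest called change, and per member the 2 named genes with the highest r (those for Fgfr2 are not reported here). Promoter windows came from RefSeq (GRCm38.p6). Tables and plots were made with Python 3.11.15, pandas 2.3.3, NumPy 2.4.6 and matplotlib 3.10.9.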

Additional observations from a re-analysis of the deposited data

Results flagged for a closer look

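The responses to mTORi of the 2 lines differed, by a test of the line-by-time interaction over all tested genes, for the following genes (log2 differences, DNMT3ABKO response minus KH response). Among the 10 members the values at 72 h were -0.66 for Fgfr2, 0.49 for Spry2, 1.04 for Egr1 and 0.43 for Etv4. At 144 h they were -0.70 for Fgfr1, -1.14 for Fgfr2, 0.60 for Spry2, 0.67 for Spry4, 0.46 for Dusp6, 1.22 for Egr1 and 0.47 for Etv4. Of the other pathway genes, the ligands Fgf1, Fgf5 and Fgf8 differed at 72 h by 0.85, 1.38 and 1.45, and at 144 h by 1.29, 1.01 and 1.37. Fgf7 differed at 144 h by 1.07. The co-receptor Sdc4 differed at 72 h by -0.48. The feedback phosphatases Dusp1 and Dusp5 differed at 144 h by 0.60 and 0.48. The Egr1 relatives Egr2 and Egr3 differed at 144 h by 0.80 and 0.84. The repressor Erf differed by 0.43 at 72 h and 0.39 at 144 h, and Myc by 0.51 and 0.49. Ccnd1, which encodes cyclin D1, differed at 144 h by -0.66. Of the 66 other pathway genes tested, 5 were called upward and 1 downward at 72 h, then 10 and 1 at 144 h. Over all genes 5.23% were called at 72 h and 8.59% at 144 h. The calls of these other pathway genes were not checked in the alternative settings. Fgf5 and Fgf8 began higher in KH (11.5 and 11.8 TPM, and 16.4 and 13.8 TPM) than in DNMT3ABKO (3.97 and 4.06 TPM, and 5.14 and 5.29 TPM) and were under 2 TPM in every treated library. No group had enough libraries for a test of outlying samples.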

How the results depend on the processing

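Of the 70 calls of members over the 11 contrasts, 56 held in all 17 alternatives. Numbers of called members that moved by more than 1.5 times were those of DNMT3ABKO against KH at 0 h (5, but 3 with no filter, 0 with the compared groups alone, 2 with the replicate block and 2 to 7 with single libraries left out), at 72 h (2, but 4 with the compared groups alone) and at 144 h (5, but 8 after median-ratio rescaling), and of the difference in response at 72 h (4, but 7 after rescaling, 1 with the compared groups alone, 1 with the replicate block and 1 to 7 with single libraries left out). At 0 h the fit of the compared groups alone called 303 of all genes, and 1425 were called in the fit of all groups. The cause was not tested. Signs changed only for values that had not been called. After rescaling these were Etv5 at 72 h in KH (-0.0054), Etv5 and Spry2 at 144 against 72 h in DNMT3ABKO (0.0559 and 0.0328), and between the lines Fgfr1 at 0 h (0.0433), Etv5 at 72 h (0.0230), and Spry2 and Etv5 at 144 h (0.0190 and 0.0262). With the replicate block Fgfr1 between the lines changed sign at 0 h (0.0369) and 72 h (0.0080). With single libraries left out the ranges that crossed 0 were -0.0043 to 0.0491 for Fgfr1 and -0.0178 to 0.0219 for Etv5 at 144 against 72 h in KH, -0.32 to 0.13 and -0.34 to 0.11 for Etv5 at 72 and 144 h in DNMT3ABKO, -0.19 to 0.0321 for Fgf4, -0.11 to 0.0872 for Fgfr1 and -0.0301 to 0.42 for Etv5 between the lines at 0 h, and -0.0249 to 0.0148 for Etv5 at 72 h. For the difference in response they were -0.14 to 0.0778 for Fgf4, -0.13 to 0.0691 for Fgfr1 and -0.43 to 0.0251 for Etv5 at 72 h, and -0.0122 to 0.11 for Dusp4 and -0.45 to 0.0039 for Etv5 at 144 h. Rescaling moved the median log2 fold change of all genes at 72 h from 0.12 to -0.0039 in DNMT3ABKO. The study states that time points of a replicate were handled in parallel, but deviations of same-numbered libraries correlated by only -0.10 to 0.10, so the replicate numbers are not taken to pair the samples, and the replicate block changed no call beyond those named here and in the text above. With 2 libraries per group and no read depth, TPM differences within the intervals given could not be resolved.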
